A study of Mus musculus with 12 samples.

Results

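The contrast described here asks whether deletion of the glucocorticoid receptor changes a gene differently in Paneth cells and in the other cells of the same crypts. It is the genotype by cell fraction interaction, the log2 fold change of GRKO against WT in Paneth cells minus that in non-Paneth cells, and it uses all 12 of the 12 libraries of the series. Each of the 4 groups holds 3 libraries, namely WT Paneth, GRKO Paneth, WT non-Paneth and GRKO non-Paneth cells, all sorted from small-intestinal crypts of naive adult C57BL/6J mice. GRKO stands for GRvillinKO, in which the receptor gene Nr3c1 is deleted where the epithelial villin promoter drives Cre, so Paneth cells, non-Paneth cells and the villus epithelium above them share the deletion. Paneth cells were gated as CD24+ cKIT+ cells of medium to high side scatter that lacked the lineage markers CD31, CD45 and TER119. How non-Paneth cells were gated is not stated in the text used here. Genotype was read from the titles and column names, because the genotype field gives every Paneth library 1 genotype and every non-Paneth library the other. Genes past the threshold for the interaction were then sorted by the fraction in which the genotype effect itself passed.

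The glucocorticoid receptor is a nuclear receptor that binds corticosterone in mice and acts as a transcription factor, either on DNA sites of its own or through other factors. Paneth cells sit at the crypt base and secrete lysozyme and alpha defensins, while the rest of the crypt holds stem cells, dividing progenitors and maturing enterocytes, goblet, tuft and enteroendocrine cells. As progenitors leave the crypt base they stop dividing and build the brush border, the actin-filled microvilli of the absorptive surface. A bulk measurement of sorted cells cannot tell fewer cells of a type from less RNA per cell.

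Libraries held 11126297 to 15910292 counts. Levels are given as CPM (each count scaled to its library) after scaling with TMM factors. In Paneth libraries the factors overlapped between genotypes, with 0.656 to 0.826 in WT and 0.661 to 0.812 in GRKO. In non-Paneth libraries they were separate, with 1.2 to 1.22 in WT and 1.46 to 1.5 in GRKO. Nr3c1 had 40.9, 50.4 and 54.1 CPM in WT Paneth, 7.98, 5.82 and 15.4 CPM in GRKO Paneth, 110, 126 and 131 CPM in WT non-Paneth and 20, 13.1 and 24.5 CPM in GRKO non-Paneth libraries. It was lower in GRKO cells of both fractions, and its interaction did not pass (log2 difference 0.37, SE 0.423, adjusted p = 0.593 by edgeR's quasi-likelihood test). Summed markers of Paneth cells lay between 433000 and 673000 CPM in the Paneth libraries and between 362 and 1130 CPM in the non-Paneth libraries. Immune, endothelial and stromal, and erythroid marker lists summed to at most 29.3, 4.85 and 0.0947 CPM in any library. Other epithelial markers were present too, goblet ones at 11600 to 14800 CPM in WT Paneth and 7150 to 15100 CPM in WT non-Paneth libraries. Stem cell, enteroendocrine and tuft cell sums were 9000 to 9470, 2110 to 3250 and 289 to 722 CPM in WT Paneth libraries. In WT non-Paneth libraries they were lower, at 4210 to 5560, 257 to 688 and 27.2 to 39.3 CPM. Enterocyte sums went the other way. Which cells of the Paneth sort held the non-Paneth markers was not tested. Both libraries of WT replicate 2 carried Xist, at 193 and 215 CPM, and the other libraries at most 0.428 CPM, so WT replicate 2 differs in sex from the rest. No label says that replicates come from separate animals, and p-values then measure the spread between these libraries.

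Of 13057 genes tested, 2445 (18.7%) passed a false discovery rate of 5% for the interaction. At an unadjusted p under 0.05 it was 4345 genes (33.3%). In 1496 (11.5%) the difference was positive, meaning that the GRKO to WT ratio was higher in Paneth than in non-Paneth cells, and in 949 (7.27%) it was negative. The effect of genotype by itself passed in 420 genes (3.22%) of Paneth cells, 222 higher (1.7%) and 198 lower (1.52%) in GRKO. It passed in 4869 genes (37.3%) of non-Paneth cells, 2283 higher (17.5%) and 2586 lower (19.8%). Of the 2445 interaction genes, 1925 (78.7%) had a genotype effect past the threshold in non-Paneth cells only, with 1236 lower and 689 higher in GRKO. Another 129 (5.28%) passed in Paneth cells only, 51 (2.09%) in both fractions with opposite signs, 1 in both with the same sign and 339 (13.9%) in neither. The bar was not equal for both fractions, since the largest unadjusted p that passed was 0.0016 in Paneth and 0.0186 in non-Paneth cells, so a gene of the first class is not shown to be unaffected in Paneth cells. At an unadjusted p under 0.05, 451 of the 1925 genes (23.4%) also differed in Paneth cells, against 26.7% of all genes tested. Genes that passed in Paneth cells are left out of this class by definition, which lowers its share, so the 2 shares are no test. Sorted by size in place of significance, the log2 fold change was at least 2 times as large in non-Paneth cells for 1498 interaction genes (61.3%, against 39.7% of all genes tested) and in Paneth cells for 222 (9.08%, against 21%).

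The direction of the split followed the scaling of the libraries. With library totals in place of TMM factors, 2587 genes passed, of which 751 (29%) were positive, against 61.2% as reported here. That scaling shifted the median genotype effect in non-Paneth cells from 0.02 to 0.31 on the log2 scale and the median interaction from -0.01 to -0.28, and it shared 1698 genes with the 2445. All 2445 genes kept the sign of their difference under it. Changes below are therefore relative to the bulk of genes. The count also moved by over 1.5 times without WT non-Paneth replicate 2 (1562 genes), and when both libraries of 1 number were left out, for WT replicate 3 (1596), GRKO replicate 2 (963) and GRKO replicate 3 (1432). Without both libraries of WT replicate 2, which differ in sex, 1682 genes passed. In all 12 fits that left out 1 library, 1316 of the 2445 genes (53.8%) passed each time.

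**Figure D1:**
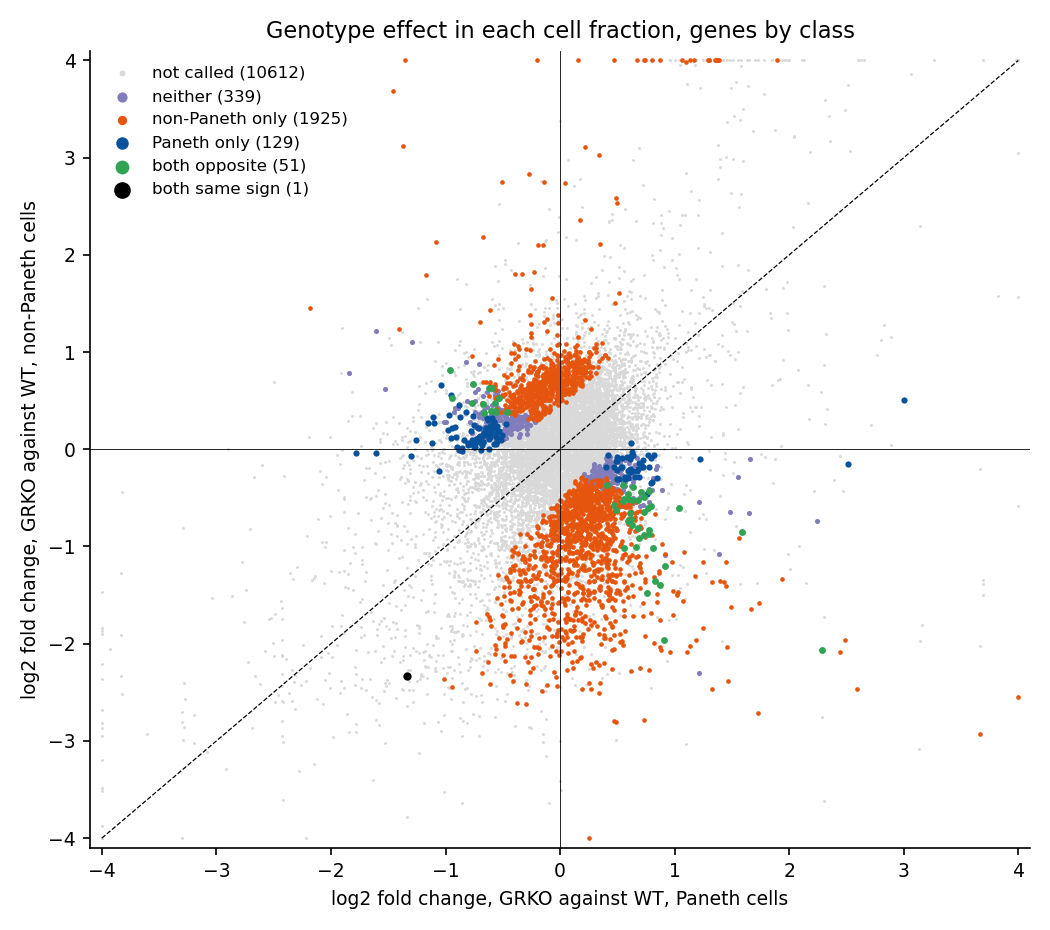
Each point is 1 of the 13057 genes, with the log2 fold change of GRKO against WT in Paneth cells on the x axis and in non-Paneth cells on the y axis, both limited to 4 on the log2 scale (89 genes are drawn at the limit). The 1925 genes of the non-Paneth only class spread along the y axis, 1236 below and 689 above 0, the 129 genes of the Paneth only class lie to either side near the x axis, and the dashed diagonal marks equal effects.

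Grina, Mical1 and Cldn4 passed for genotype in non-Paneth cells and not in Paneth cells. Grina (ENSMUSG00000022564, chromosome 15, 76130687 to 76134119 on the plus strand, GRCm39) encodes a membrane protein of the TMBIM family, which is known for calcium handling and for limiting cell death. Its levels were 33.4, 31.9 and 30 CPM in WT Paneth, 31.1, 37.5 and 35 CPM in GRKO Paneth, 138, 165 and 141 CPM in WT non-Paneth and 35.5, 31.9 and 38.6 CPM in GRKO non-Paneth libraries. The genotypes overlapped in Paneth cells, and in non-Paneth cells every GRKO library lay below every WT library, at the level of the Paneth fraction. The log2 fold change was 0.12 (SE 0.125) in Paneth and -2.07 (SE 0.122) in non-Paneth cells, a difference of 2.19 (95% interval 1.82 to 2.56, adjusted p = 1e-05 by edgeR's quasi-likelihood test). Groups of 3 that do not overlap were found for 24.4% of all genes tested in Paneth and for 55.3% in non-Paneth cells.

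Mical1 (ENSMUSG00000019823, chromosome 10, 41351835 to 41363028 on the plus strand) encodes a monooxygenase that oxidises and takes apart actin filaments. It had 16.7, 18.9 and 20.5 CPM in WT Paneth, 27.6, 25.6 and 24.5 CPM in GRKO Paneth, 235, 215 and 203 CPM in WT non-Paneth and 58.9, 41.5 and 57 CPM in GRKO non-Paneth libraries. Its GRKO libraries lay above the WT libraries in Paneth cells and below them in non-Paneth cells. Only the non-Paneth effect passed, with a log2 fold change of -2.05 (adjusted p = 7.57e-07 by edgeR) beside 0.47 in Paneth cells (adjusted p = 0.0749), and the difference was 2.52 (SE 0.202, adjusted p = 1e-05). Cldn4 (ENSMUSG00000047501, chromosome 5, 134973973 to 134975788 on the minus strand) encodes the tight junction protein claudin 4. It had 60, 71.7 and 68.1 CPM in WT Paneth, 68.8, 79.7 and 73 CPM in GRKO Paneth, 71.4, 82.9 and 103 CPM in WT non-Paneth and 19.1, 20.7 and 16.9 CPM in GRKO non-Paneth libraries. Unlike Grina and Mical1 it stood at a like level in both WT fractions, and its GRKO non-Paneth libraries lay below every other library. The log2 fold change was 0.15 in Paneth and -2.18 in non-Paneth cells, a difference of 2.33 (SE 0.201, adjusted p = 1.95e-05 by edgeR). These 3 genes passed under all 27 alternatives run, with differences between 1.92 and 2.64.

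The receptor's palindromic site, AGAACA and TGTTCT with 3 bases between them, and its single core, AGAACA or TGTTCT on the other strand, were looked up in the RefSeq promoters (GRCm38.p6) from 250 bases before to 50 after a start, which matched 9918 of the 13057 genes with 12689 promoters. The full site lay in 1 promoter of all genes tested (0.00788%) and in none of the interaction genes. A single core lay in 12.2% of promoters of the non-Paneth only class, 12.4% of the Paneth only class, 13% of the class with opposite signs and 17.5% of the class in which neither effect passed, against 12.9% over all genes tested. Full sites are counted within the single cores they contain. The 250 bases before the start are shown, with the core in capitals, for the claudin gene as an example without a core and for Rgs13, a tuft cell gene of the same class with the opposite sign, as an example with a core. Neither stretch crosses an annotated exon, and both were placed in GRCm39 by exact match, Cldn4 at chr5:134975789-134976038 and Rgs13 at chr1:144053111-144053360, both on the minus strand.
Cldn4: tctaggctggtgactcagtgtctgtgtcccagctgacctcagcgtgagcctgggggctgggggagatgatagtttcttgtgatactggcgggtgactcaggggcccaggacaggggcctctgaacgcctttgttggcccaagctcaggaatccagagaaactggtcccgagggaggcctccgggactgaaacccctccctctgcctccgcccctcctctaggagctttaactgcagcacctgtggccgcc
Rgs13: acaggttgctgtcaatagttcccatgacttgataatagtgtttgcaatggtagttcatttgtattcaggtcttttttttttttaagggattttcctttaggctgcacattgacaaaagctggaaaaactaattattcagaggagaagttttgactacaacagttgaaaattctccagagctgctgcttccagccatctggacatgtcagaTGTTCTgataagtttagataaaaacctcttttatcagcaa
A match in these windows is a description of letters, and binding was not measured in these libraries.

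**Figure D2:**
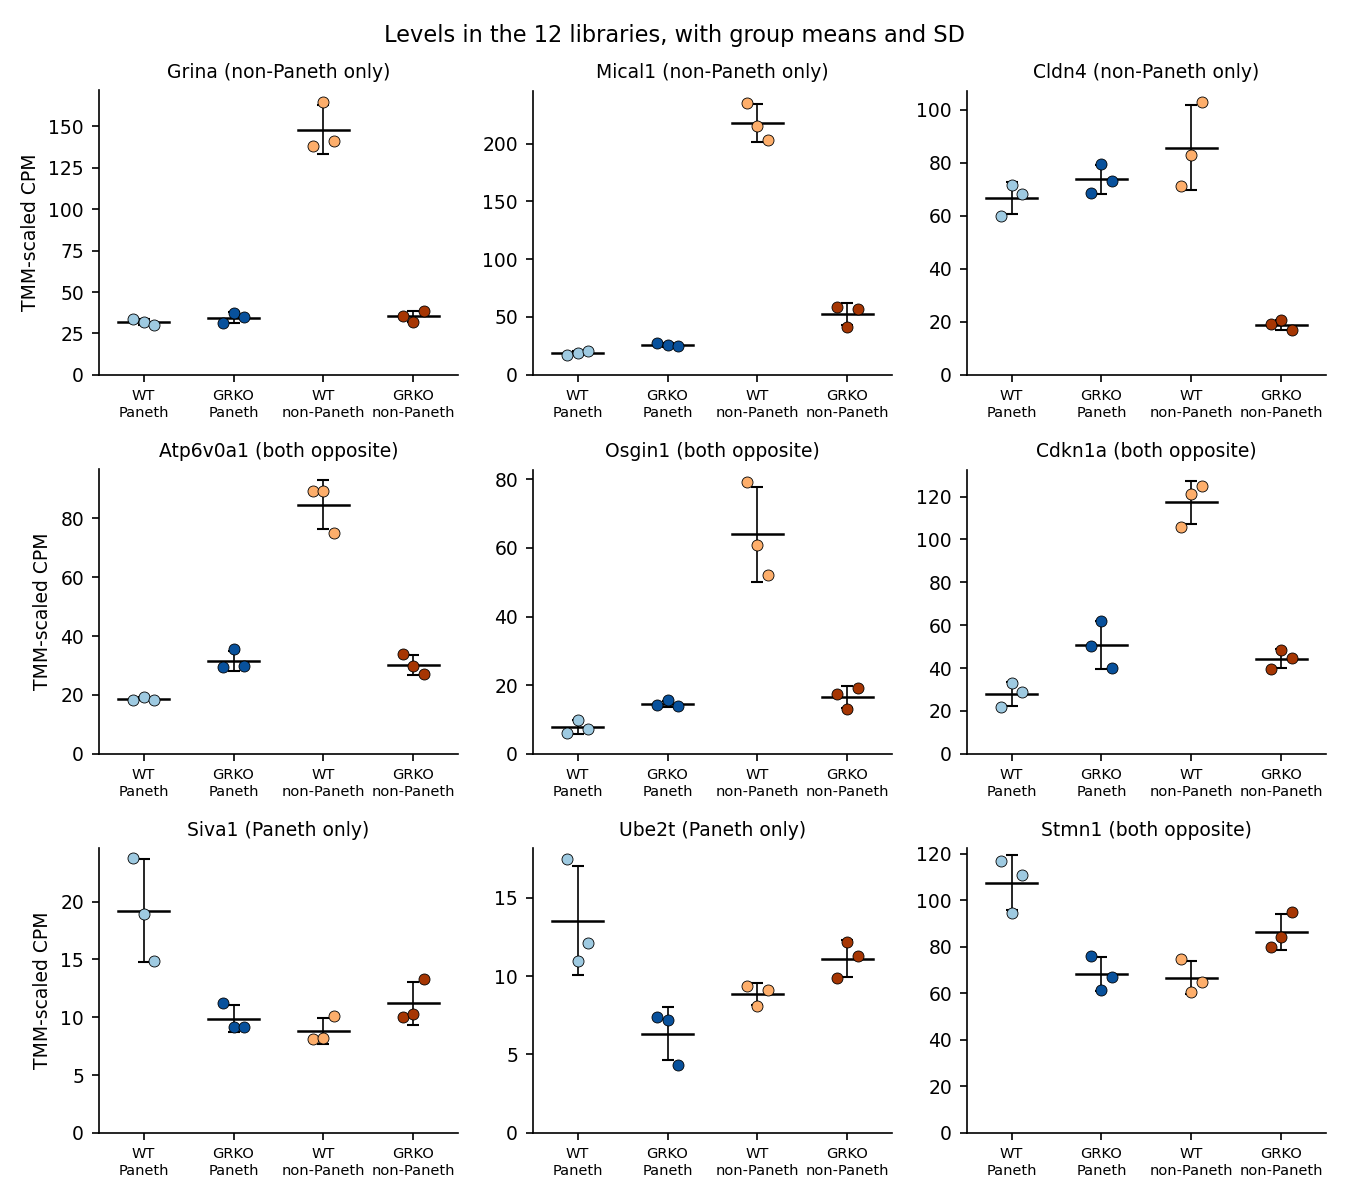
Each panel shows the TMM-scaled CPM of 1 gene in the 12 libraries (points), with the group mean (line) and SD (bars, n = 3) and the class of the gene in parentheses. Grina, Mical1 and Cldn4 fall in GRKO non-Paneth libraries, Atp6v0a1, Osgin1 and Cdkn1a move in opposite directions in the 2 fractions, and Siva1, Ube2t and Stmn1 are lower in GRKO Paneth libraries.

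The 1236 genes that fell in non-Paneth cells only had a median level of 24.6 CPM in WT Paneth, 27.7 in GRKO Paneth, 64.1 in WT non-Paneth and 33.2 CPM in GRKO non-Paneth cells, and 1157 of 1236 (93.6%) were higher in WT non-Paneth than in WT Paneth cells, against 74.9% of all genes tested with a positive difference. The WT levels enter the difference that chose these genes, so the levels describe the class, here and for the classes below, and are no test. Of the brush border and actin list, 21 of 24 members passed the interaction (87.5%, against 18.7% of all genes). Of these, 20 were positive and 1 negative, the filamin gene Flna (-0.79, SE 0.197). The 20 include Mical1, which was given with the contrast, so its own pass is no support for the share. The list's median log2 fold change was 0.35 in Paneth and -0.99 in non-Paneth cells, beside 0.03 and 0.02 over all genes tested. In non-Paneth cells 18 members fell and Flna rose, where 19.8% of all genes fell and 17.5% rose. Vil1, which encodes the actin bundler villin, had 340 to 523 CPM in WT Paneth, 523 to 692 CPM in GRKO Paneth, 2410 to 2560 CPM in WT non-Paneth and 844 to 915 CPM in GRKO non-Paneth libraries, a difference of 1.93 (SE 0.226, adjusted p = 0.000167 by edgeR). The protocadherins Cdhr2 and Cdhr5, which link the tips of microvilli, differed by 2.43 (SE 0.283) and 2.44 (SE 0.29). Their non-Paneth log2 fold changes were -1.87 and -1.72. Not all members belonged to the non-Paneth class. Mical2, a nuclear relative of Mical1, passed in Paneth cells only (log2 fold change 0.79, adjusted p = 0.0448) and Micall1, an adaptor of endocytic recycling, passed in both with opposite signs (0.73 and -0.49). Between 17 and 20 members passed with a positive sign over the 27 alternatives.

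Of the TMBIM family, 4 of 6 members passed (66.7%, against 18.7% of all genes), all positive and all through a fall in non-Paneth cells. Beside Grina these were Tmbim6 (difference 0.97, SE 0.181), Tmbim1 (1.06, SE 0.203) and Tmbim4 (0.66, SE 0.202), while Faim2 (-1.34, adjusted p = 0.211) and Ghitm (0.08, adjusted p = 0.8) did not pass. Grina was given with the contrast, so its own pass is no support for the share. Tmbim4 passed in 13 of 27 alternatives. Tmbim6, also called Bax inhibitor 1 and resident in the endoplasmic reticulum, went from 1140 to 1320 CPM in WT to 695 to 793 CPM in GRKO non-Paneth libraries. Among claudins and tight junction genes 4 of 18 passed (22.2%, near the 18.7% of all genes), namely Cldn4, the cytoplasmic plaque protein gene Cgn (difference 1.11), Marveld3 (0.86) and F11r (0.67), which encodes the junctional adhesion molecule A. Cldn4 too was given with the contrast.

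Of 16 interferon response genes 8 passed the interaction (50%, against 18.7% of all genes tested), all positive. In GRKO non-Paneth cells 12 of the 16 were lower, against 19.8% of all genes tested. Their median log2 fold change was 0.22 in Paneth and -1.48 in non-Paneth cells. Stat2, a transcription factor of type I interferon signalling, had 20, 32.2 and 23 CPM in WT Paneth, 29.1, 35.5 and 24.2 CPM in GRKO Paneth, 62.2, 82.5 and 60.3 CPM in WT non-Paneth and 24.7, 23.8 and 21.8 CPM in GRKO non-Paneth libraries. Only in the non-Paneth fraction were the genotypes separate, and the difference was 1.79 (SE 0.26, adjusted p = 0.000571 by edgeR). The interferon-induced genes Ifi27l2b, Isg15 and Rsad2 differed by 1.59, 2.32 and 3.2, with SEs of 0.25, 0.499 and 0.745. Without GRKO Paneth replicate 2 the list gave 5 genes, and without both libraries of WT replicate 3 or of GRKO replicate 2 it gave 5 and 2. In antigen presentation 2 of 14 genes passed (14.3%, below the 18.7% of all genes), the class I molecule H2-K1 (1.18, SE 0.26) and the peptide transporter Tap2 (1.09, SE 0.345), which passed in 13 of 27 alternatives. The list's median log2 fold change was -0.85 in Paneth and -1.11 in non-Paneth cells, and its sum was lowest in GRKO replicate 3 in both fractions, at 1520 CPM in Paneth and 2350 CPM in non-Paneth cells.

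Of 16 xenobiotic metabolism genes, 15 were lower in GRKO non-Paneth cells, against 19.8% of all genes tested. The interaction passed for 5 of the 16 (31.2%, against 18.7% of all genes). Among these were the export pumps Abcc2 (difference 3.15, SE 0.427), Abcg2 (0.94, SE 0.228) and Abcb1a (0.83, SE 0.264) and the sulfotransferase Sult1d1 (1.38, SE 0.295). Abcb1a passed in 15 of 27 alternatives. Abcc2 had 10.5 to 13.2 CPM in WT Paneth, 20.3 to 32.4 CPM in GRKO Paneth, 96.5 to 124 CPM in WT non-Paneth and 16.4 to 42.7 CPM in GRKO non-Paneth libraries, so its groups were separate in both fractions, in opposite directions. Without WT Paneth replicate 2 the xenobiotic list gave 10 genes, and without GRKO Paneth replicate 2 or WT non-Paneth replicate 3 it gave 3. Of 9 metallothioneins and zinc transporters 4 passed (44.4%, against 18.7% of all genes), all positive. These were the zinc-sensing factor Mtf1 (1.22), the uptake transporter Slc39a4 (1.07) and the zinc transporters Slc30a1 (1.23) and Slc30a2 (1.67). Slc30a2 stood higher in WT Paneth (mean 104 CPM) than in WT non-Paneth cells (47.3 CPM), unlike Mtf1, Slc39a4 and Slc30a1. Lysosome and autophagy genes gave 7 of 22 (31.8%), led by the cholesterol transporter Npc1 (1.3, SE 0.18) and the autophagy receptor Sqstm1 (0.94, SE 0.221). Glycolysis gave 4 of 15 (26.7%), Gapdh (0.75), Pfkp (1.42), Pkm (0.81) and Eno1 (0.75, passed in 16 of 27 alternatives). Nrf2 response genes gave 3 of 13 (23.1%), Srxn1 (1.58), Gclm (0.97) and Gsta4 (1.46). These last shares stand near the 18.7% of all genes tested. With library totals the positive members that passed numbered 2 for lysosome and 1 for glycolysis genes, and the median differences were 0.17 and 0.14. Lysosome genes numbered 4 without WT Paneth replicate 3, WT non-Paneth replicate 2 or GRKO non-Paneth replicate 2, and glycolysis genes 2 without GRKO Paneth replicate 2.

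Of 14 enterocyte markers 4 passed (28.6%, against 18.7% of all genes), among them Anpep (2.24, SE 0.578), Mttp (1.67, SE 0.507) and Slc5a1 (1.19, SE 0.332). In GRKO non-Paneth cells 8 of the 14 were lower, against 19.8% of all genes tested. Mttp passed in 12 and Slc5a1 in 20 of 27 alternatives. The median of the list was -0.55 in Paneth and -2.07 in non-Paneth cells, beside 0.03 and 0.02 over all genes. Summed over the list, the markers reached 34600 to 36400 CPM in WT non-Paneth and 6820 to 8930 CPM in GRKO non-Paneth libraries. In Paneth cells the sums were 801 to 2940 CPM in WT, the highest in replicate 2, and 809 to 1110 CPM in GRKO libraries. Without WT Paneth replicate 2, 13 of the 14 markers passed the interaction, and without WT Paneth replicate 3, GRKO Paneth replicate 2 or GRKO Paneth replicate 3 it was 1, 1 and 2. No marker of the list was at 0 in a whole group. The fall of this sum moved with the falls of the brush border, interferon, transport and detoxification genes given above, and its part in them was not tested.

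The 689 genes that rose in non-Paneth cells only had a median level of 32.9 CPM in WT Paneth, 31.3 in GRKO Paneth, 25.1 in WT non-Paneth and 38.1 CPM in GRKO non-Paneth cells. Of 16 proliferation genes 15 passed the interaction (93.8%, against 18.7% of all genes), all negative. In GRKO non-Paneth cells all 16 rose, against 17.5% of all genes tested (median log2 fold change 0.75, beside -0.09 in Paneth cells). The mitotic kinase gene Aurkb had 48.7, 42.1 and 46.3 CPM in WT Paneth, 40.4, 47.7 and 40.3 CPM in GRKO Paneth, 32.7, 38.8 and 43.8 CPM in WT non-Paneth and 68.4, 68.8 and 81.7 CPM in GRKO non-Paneth libraries. It overlapped between genotypes in Paneth cells and was separate in non-Paneth cells, with a difference of -1.02 (SE 0.188, adjusted p = 0.00249 by edgeR). The survivin gene Birc5 (-0.99, SE 0.182) and the cyclin-dependent kinase gene Cdk1 (-0.89, SE 0.164) were of the same class. Mki67 rose in non-Paneth cells (0.71, adjusted p = 0.0119) and was the member that did not pass the interaction (-0.58, adjusted p = 0.166). Over the 27 alternatives 13 to 15 members passed.

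Stem cell markers gave 9 of 11 (81.8%, against 18.7% of all genes), all negative, with a median log2 fold change of -0.37 in Paneth and 0.53 in non-Paneth cells. The Wnt target and stem cell factor Ascl2 differed by -1.44 (SE 0.319), Tnfrsf19 by -1.1 (SE 0.241), Cdca7 by -0.96 (SE 0.173) and Smoc2 by -0.78 (SE 0.155). Ascl2 had 21.3, 13.1 and 11.9 CPM in WT and 29.5, 31.1 and 35.9 CPM in GRKO non-Paneth libraries, and overlapped between the genotypes in Paneth cells. Lgr5, the receptor that marks crypt base stem cells, passed narrowly (-0.77, SE 0.251, adjusted p = 0.0443). Summed stem cell markers were lower in the Paneth libraries of GRKO, with 5070 to 7100 CPM against 9000 to 9470 CPM in WT. They were higher in the non-Paneth libraries, with 5600 to 6970 CPM against 4210 to 5560 CPM. These sums rest largely on Olfm4, whose median over all libraries was 4620 CPM, against 70.7 CPM for Lgr5 and 30.8 CPM for Ascl2. The stem cell list gave 5 and 3 genes without both libraries of WT replicate 3 or of GRKO replicate 2. Ribosome biogenesis genes gave 11 of 17 (64.7%), all negative. It was 7, 5 and 7 genes without WT Paneth replicate 3, WT non-Paneth replicate 2 or GRKO non-Paneth replicate 3. In non-Paneth cells 16 of the 17 rose, against 17.5% of all genes. Among them were the nucleolar genes Npm1 (-0.86), Dkc1 (-0.9) and Fbl (-0.85) and the RNA polymerase I subunit gene Polr1b (-0.77). Of 10 genes of serine, proline and asparagine synthesis 2 passed (20%, near the 18.7% of all genes), the 1-carbon enzyme gene Shmt2 (-0.78) and the serine synthesis gene Phgdh (-1.08). In non-Paneth cells 5 of the 10 rose and 1 fell, where 17.5% of all genes rose and 19.8% fell. Of 14 immediate early genes 3 passed (21.4%), and they differed in sign. Myc, a driver of growth, rose in non-Paneth cells (difference -0.85, SE 0.164), and the differentiation factors Klf4 (1.61, SE 0.208) and Klf6 (0.93, SE 0.218) fell there. Of this list 9 fell and 1 rose in non-Paneth cells, where 19.8% of all genes fell and 17.5% rose. Its median log2 fold change was -1.58 there and -0.84 in Paneth cells.

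Tuft cells are rare chemosensory cells of the epithelium. Of 12 tuft cell markers 11 were tested and 5 passed (45.5%, against 18.7% of all genes), all negative. In GRKO non-Paneth cells 9 rose, against 17.5% of all genes. The list's median log2 fold change was 4.77 there and 1.38 in Paneth cells. Pou2f3, the transcription factor that defines tuft cells, had 12.4, 18.8 and 27 CPM in WT Paneth, 55.4, 68.3 and 27.5 CPM in GRKO Paneth, 0.0637, 0.465 and 0.374 CPM in WT non-Paneth and 10.3, 15.5 and 5.82 CPM in GRKO non-Paneth libraries. The GRKO libraries were higher in both fractions, and only the non-Paneth effect passed. The difference of -3.67 (SE 0.878, adjusted p = 0.0188 by edgeR) compares log2 fold changes of 1.38 in Paneth and 5.05 in non-Paneth cells. In CPM the gain was larger in Paneth cells, from a mean of 19.4 to 50.4, than in non-Paneth cells, from 0.301 to 10.5. Gfi1b had 0 counts in WT and 95 in GRKO non-Paneth libraries, and was at least 23.9-fold higher there, taking 3 counts over the WT group as the floor. Avil (-3.5, SE 0.955) and Rgs13 (-4.03, SE 1.15, adjusted p = 0.0424) went the same way. Rgs13 passed in 11, Avil in 13 and Gfi1b in 18 of 27 alternatives. The homeobox genes Hmx3 and Hmx2, neighbours on chromosome 7 (131144596 to 131146654 and 131150502 to 131159744), followed the same pattern of levels. Hmx3 had 0 counts in WT and 191 in GRKO non-Paneth libraries, at least 48-fold higher, and Hmx2 had 2 and 172 counts, a ratio of 64.8 (95% counting interval 17.7 to 539). Plcb2, a phospholipase of taste and tuft cell signalling, differed by -4.21 (SE 1.11) and passed in 17 of 27 alternatives, and Hmx2 passed in 20. Summed tuft cell markers were 289 to 722 CPM in WT Paneth, 639 to 1850 CPM in GRKO Paneth, 27.2 to 39.3 CPM in WT non-Paneth and 121 to 442 CPM in GRKO non-Paneth libraries, and GRKO replicate 3 was the lowest GRKO library of both fractions. The number of tuft markers past the interaction threshold rested on single libraries. It was between 1 and 3 when any 1 library other than WT Paneth replicate 1 and GRKO non-Paneth replicate 3 was left out, and 9 without GRKO non-Paneth replicate 3 and with DESeq2.

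Sst, the gene of the hormone somatostatin, had 24.6, 31.1 and 12.2 CPM in WT Paneth, 8.1, 10.1 and 6.44 CPM in GRKO Paneth, 0.891, 4.13 and 3.42 CPM in WT non-Paneth and 33.1, 35.9 and 41.5 CPM in GRKO non-Paneth libraries. Its genotypes were separate in both fractions, and only the rise in non-Paneth cells passed (log2 fold change 3.69, adjusted p = 0.000173), with -1.46 in Paneth cells (adjusted p = 0.0749) and a difference of -5.15 (SE 0.618, adjusted p = 0.000646 by edgeR). Of 14 enteroendocrine markers 3 passed (21.4%, near the 18.7% of all genes), Sst, the progenitor factor Neurog3 (-2.25, SE 0.637) and the lineage factor Pax6 (-2.66, SE 0.736), while Chga did not (-0.2, adjusted p = 0.799). Neurog3 passed in 17 of 27 alternatives. The summed markers were higher in GRKO Paneth libraries, at 3380 to 5990 CPM against 2110 to 3250 CPM in WT. They overlapped in non-Paneth libraries, at 502 to 763 CPM in GRKO against 257 to 688 CPM in WT. The list's median log2 fold change was -0.4 in Paneth and 0.52 in non-Paneth cells, so the Paneth sum did not follow the median member. Past the threshold for genotype, 0 members rose and 0 fell in Paneth cells, where 1.7% of all genes rose and 1.52% fell. In non-Paneth cells 5 members rose, against 17.5% of all genes tested. Against these negative differences stood Trim38, a ubiquitin ligase of innate immune signalling, with a positive difference of 4.46 (SE 0.914, adjusted p = 0.00939). It had 0.095, 2.1 and 1.3 CPM in WT Paneth, 5.92, 10.9 and 1.7 CPM in GRKO Paneth, 23, 16.6 and 19.5 CPM in WT non-Paneth and 5.5, 4.53 and 5.13 CPM in GRKO non-Paneth libraries. The genotypes overlapped in Paneth cells, where WT replicate 1 was the lowest library.

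**Figure D3:**
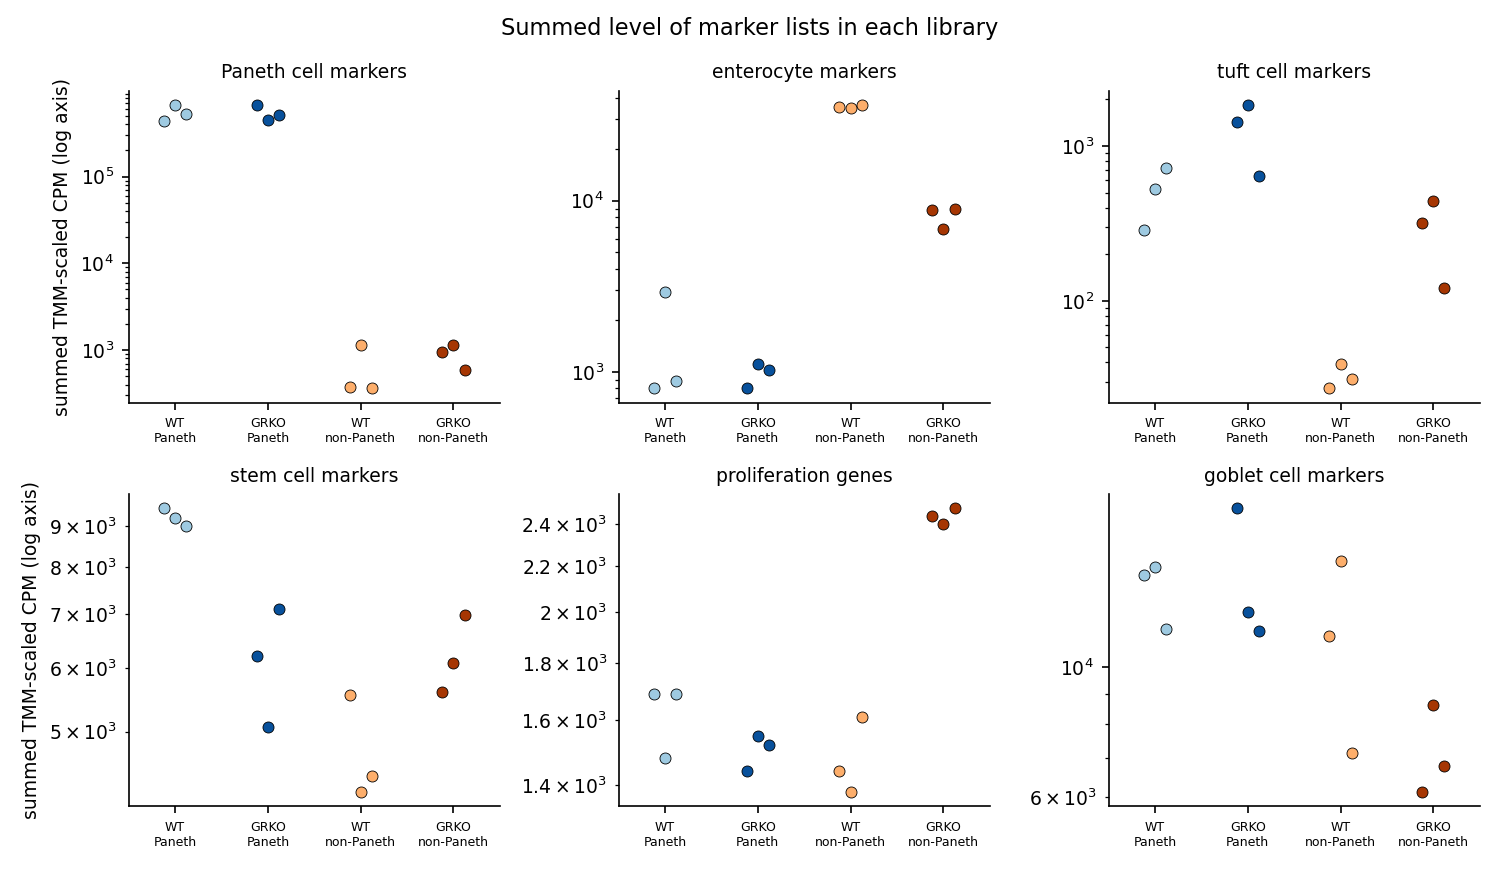
Summed TMM-scaled CPM of 6 marker lists in each library on log axes, 3 points a group. Enterocyte sums are 34600 to 36400 CPM in WT and 6820 to 8930 CPM in GRKO non-Paneth libraries, tuft and proliferation sums are higher in GRKO non-Paneth libraries, and Paneth cell sums do not separate the genotypes.

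A small class of 51 genes changed in both fractions with opposite signs, 37 of them up in GRKO Paneth and down in GRKO non-Paneth cells. The size of the class rested on single libraries. It held 0 genes without WT Paneth replicate 1, GRKO Paneth replicate 2 or GRKO non-Paneth replicate 2, between 1 and 11 without GRKO Paneth replicate 3, any WT non-Paneth library or GRKO non-Paneth replicate 1 or 3, 19 without WT Paneth replicate 2 and 206 without GRKO Paneth replicate 1. The interaction itself passed for all 51 in all 18 fits with 1 or 2 libraries left out. Genes chosen for 2 opposite effects have a large difference by that choice, so this describes the class and is no test. The 37 genes had a median of 27.1 CPM in WT Paneth and 65.9 CPM in WT non-Paneth cells, and 38.6 and 30.6 CPM in the GRKO cells of each. Atp6v0a1, which encodes a membrane subunit of the proton pump that acidifies lysosomes and secretory granules, had 18.4, 19.3 and 18.3 CPM in WT Paneth, 29.5, 35.5 and 29.7 CPM in GRKO Paneth, 89.4, 89.3 and 75.1 CPM in WT non-Paneth and 33.9, 29.7 and 27.1 CPM in GRKO non-Paneth libraries. The genotypes were separate in both fractions, with log2 fold changes of 0.76 (adjusted p = 0.0347) and -1.48 (adjusted p = 3.1e-06) and a difference of 2.24 (SE 0.18, adjusted p = 1e-05 by edgeR). Cdkn1a, the cell cycle inhibitor p21, is also on the list of glucocorticoid receptor targets. It had 21.9, 32.9 and 29 CPM in WT Paneth, 50.4, 62.1 and 40 CPM in GRKO Paneth, 106, 121 and 125 CPM in WT non-Paneth and 39.7, 48.6 and 44.7 CPM in GRKO non-Paneth libraries, a difference of 2.27 (SE 0.24, adjusted p = 7.76e-05 by edgeR). The 2 genotype effects were 0.87 and -1.4.

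Osgin1, an oxidative stress gene that restrains growth, rose by 0.91 in Paneth cells and had a log2 fold change of -1.96 in non-Paneth cells. Its WT non-Paneth libraries had 79.2, 60.8 and 52 CPM and its GRKO non-Paneth libraries 17.3, 13 and 19.2 CPM. Lrp12, a receptor of the low-density lipoprotein receptor family, gave 0.83 and -1.36, Mfsd2a, a transporter of lysophosphatidylcholine lipids, gave 1.59 and -0.85, and Ltb4r2, a leukotriene B4 receptor found on epithelium, gave 2.29 and -2.06. Ltb4r2 rests on low levels in Paneth cells, 0.118 to 0.371 CPM in WT and 0.846 to 1.61 CPM in GRKO libraries. Among the 14 genes of the reverse kind, down in Paneth and up in non-Paneth cells, was the microtubule regulator and proliferation gene Stmn1. It had 117, 94.3 and 111 CPM in WT Paneth, 76.1, 61.5 and 67.1 CPM in GRKO Paneth, 74.7, 60.7 and 64.8 CPM in WT non-Paneth and 80, 84.1 and 95 CPM in GRKO non-Paneth libraries, a difference of -1.03 (SE 0.183, adjusted p = 0.00219 by edgeR). Each of these 7 genes passed the interaction under all 27 alternatives, but with library totals no gene had opposite effects that both passed, since 2 genes in all then passed in Paneth cells.

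In the class of 129 genes with an effect in Paneth cells only, 82 fell and 47 rose. At an unadjusted p under 0.05, 14 of the 129 (10.9%) also differed in non-Paneth cells, against 46.5% of all genes tested. Genes that passed in non-Paneth cells are left out of this class by definition, which lowers its share, so the 2 shares are no test. Cytosolic ribosomal protein genes made up 26 of the 82. Over the whole list of 78 tested, 50 passed the interaction (64.1%, against 18.7% of all genes), all negative. Its median log2 fold change was -0.65 in Paneth and 0.11 in non-Paneth cells. Of these 50, 26 passed in Paneth cells only, 4 in non-Paneth cells only, 1 in both and 19 in neither. Rpl3, of the large subunit, had 1050, 987 and 898 CPM in WT Paneth, 720, 570 and 633 CPM in GRKO Paneth, 655, 569 and 586 CPM in WT non-Paneth and 633, 655 and 735 CPM in GRKO non-Paneth libraries. It was separate between genotypes in Paneth cells and overlapped in non-Paneth cells, with a difference of -0.77 (SE 0.183, adjusted p = 0.00982 by edgeR). Rpl15 gave -0.82 (SE 0.188) and Rpl23a, which passed in both fractions, -0.84 (SE 0.162), whereas Rps2 rose in non-Paneth cells only (difference -0.72, SE 0.163). The list's median difference was negative in all 27 alternatives, between -1.06 and -0.6. With library totals its median was -0.67 in Paneth and 0.4 in non-Paneth cells, so the Paneth median stayed as large, while the calls moved. Under that scaling 74 members passed the interaction, 0 fell in Paneth cells and 35 rose in non-Paneth cells, against 41 and 5 as reported here. Of all genes tested, 1.52% fell in Paneth and 17.5% rose in non-Paneth cells as reported here. The number of members that passed the interaction was 73 without GRKO Paneth replicate 1. It lay between 13 and 27 without WT Paneth replicate 1, GRKO Paneth replicate 2 or 3, WT non-Paneth replicate 2 or 3 or any GRKO non-Paneth library, and at 2 and 1 without both libraries of GRKO replicate 2 or of GRKO replicate 3. Many ribosomal protein genes have processed copies elsewhere in the genome, and reads that map to more than 1 place are not in these counts.

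Of the other 56 genes that fell in Paneth cells only, 4 are named by the size of their difference. Siva1, which encodes a regulator of apoptosis, had 23.8, 18.9 and 14.9 CPM in WT Paneth, 11.2, 9.17 and 9.18 CPM in GRKO Paneth, 8.09, 8.2 and 10.1 CPM in WT non-Paneth and 9.98, 10.3 and 13.3 CPM in GRKO non-Paneth libraries, a difference of -1.31 (SE 0.27, adjusted p = 0.00464 by edgeR). Ube2t, the ubiquitin-conjugating enzyme of the Fanconi anaemia pathway, had 17.5, 11 and 12.1 CPM in WT Paneth and 7.38, 7.23 and 4.36 CPM in GRKO Paneth libraries. Its non-Paneth libraries were separate the other way, with 9.36, 8.08 and 9.14 CPM in WT and 9.88, 12.2 and 11.3 CPM in GRKO. The difference was -1.44 (SE 0.305). Poli, a DNA polymerase for translesion synthesis, differed by -1.34 (SE 0.31), and the lncRNA Eldr by -1.57 (SE 0.457). For Poli too the non-Paneth libraries were separate and higher in GRKO (log2 fold change 0.46, adjusted p = 0.102 by edgeR). Eldr passed in 17 of 27 alternatives and the others of these 4 in all 27. The strand that was counted is not stated, so reads of a gene and of a partner on the opposite strand cannot be told apart for this lncRNA.

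Genes that rose in Paneth cells only had a median of 58 CPM in WT Paneth, 83.6 in GRKO Paneth, 56.4 in WT non-Paneth and 48.5 CPM in GRKO non-Paneth cells. On the list of endoplasmic reticulum translocation and vesicle transport, 8 of 24 members passed the interaction (33.3%, against 18.7% of all genes), all positive. With library totals 4 passed it. In GRKO Paneth cells 6 members rose, against 1.7% of all genes tested. Copa, a subunit of the COPI coat that returns vesicles from the Golgi, had 249, 346 and 349 CPM in WT Paneth, 442, 520 and 443 CPM in GRKO Paneth, 340, 379 and 412 CPM in WT non-Paneth and 319, 305 and 298 CPM in GRKO non-Paneth libraries. The difference was 0.87 (SE 0.199, adjusted p = 0.00858 by edgeR), with genotypes separate in both fractions and the Paneth effect past the threshold. Copg1 (0.61, SE 0.169), of the same coat, and Sec24c (0.72, SE 0.181), of the COPII coat that leaves the endoplasmic reticulum, were of the same class. Another COPII gene, Sec31a, passed in both fractions with opposite signs (0.55 and -0.37), while Sec23a (1.34) and Sec24d (1.86) passed in non-Paneth cells only. Outside the lists, Tmem104, a membrane protein gene, gave 1.22 (SE 0.269) and Capn9, a calpain protease of the digestive tract, 1.32 (SE 0.408, adjusted p = 0.0388 by edgeR). Tmem104 was also separate in non-Paneth cells, lower in GRKO (log2 fold change -0.46, adjusted p = 0.0602 by edgeR). Capn9 passed in 13 of 27 alternatives.

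Membership of the Paneth only class rested on single libraries. It numbered 0 without WT Paneth replicate 1, without GRKO Paneth replicate 2 and without GRKO non-Paneth replicate 2, between 3 and 9 without GRKO Paneth replicate 3, WT non-Paneth replicate 2 or 3 or GRKO non-Paneth replicate 1, 16 without GRKO non-Paneth replicate 3, 31 without WT Paneth replicate 2, 39 without WT non-Paneth replicate 1 and 461 without GRKO Paneth replicate 1. In their interaction the genes were steadier than in their class, and 59 of 129 (45.7%) passed in all 12 fits with 1 library left out. This was below the 53.8% of all interaction genes. In all 18 fits with 1 or 2 libraries left out 23 (17.8%) passed, against 33.5% of all interaction genes. Across 13037 genes, which are not independent, the Paneth log2 fold change rose with the length of a gene's longest transcript (Spearman's rho 0.328). For non-Paneth cells rho was 0.136, and for the interaction 0.086. The median exonic length, here over all annotated exons of a gene, was 3854 bases for the 82 genes that fell and 8699 bases for the 47 that rose. When each library's trend on length and GC content was removed, the class held 43 genes. The part that length has in the class was not tested further.

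**Figure D4:**
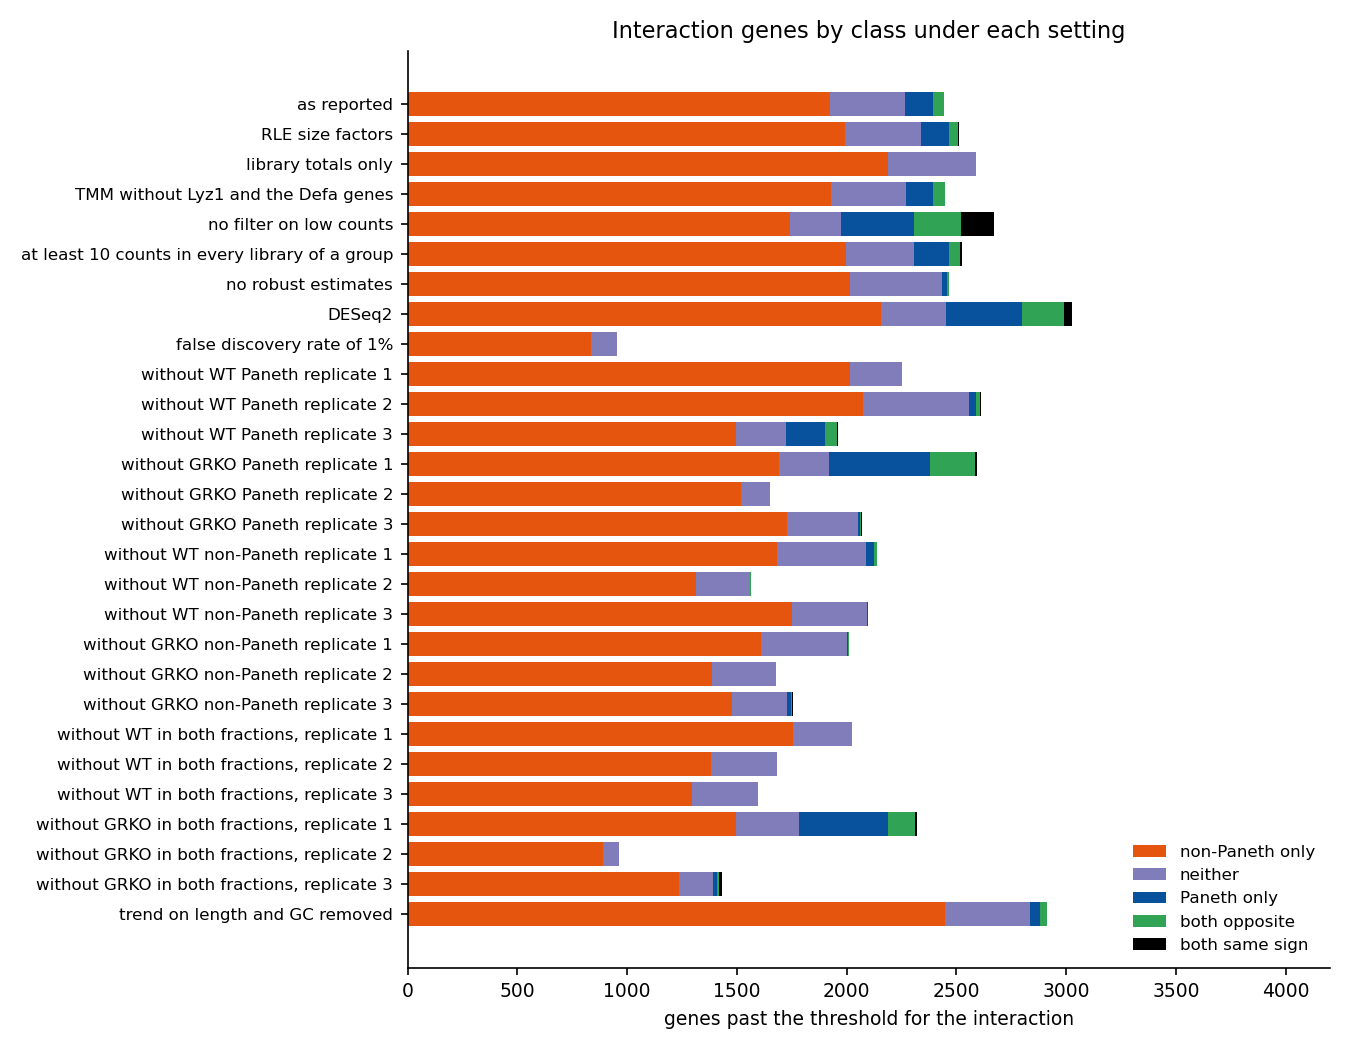
Bars give the number of genes past the threshold for the interaction under each setting, divided by class. The orange part, genes with an effect in non-Paneth cells only, is the longest in every setting, between 836 and 2448 genes where the sort could be made, while the blue part (Paneth only) lies between 0 and 461.

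Sectm1b, which encodes a secreted and transmembrane protein, was the 1 gene that fell in both fractions and still differed between them. It had 26.1, 43.6 and 23.4 CPM in WT Paneth, 13.8, 10.6 and 12.5 CPM in GRKO Paneth, 366, 464 and 407 CPM in WT non-Paneth and 89.6, 60 and 96.5 CPM in GRKO non-Paneth libraries. Both effects were separate between genotypes, at -1.34 and -2.33, and their difference of 0.99 (SE 0.322, adjusted p = 0.0462 by edgeR) passed in 12 of 27 alternatives.

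In 339 genes the difference passed although neither genotype effect did, and in each of them the effects had opposite signs. Genes chosen in this way need effects that add up, so the opposite signs follow largely from the choice and are no test. At an unadjusted p under 0.05, 305 of the 339 (90%) differed in Paneth and 134 (39.5%) in non-Paneth cells. Pfkfb3, which makes the activator of phosphofructokinase in glycolysis, had 8.46, 16.2 and 18.7 CPM in WT Paneth, 33.4, 56.9 and 22.3 CPM in GRKO Paneth, 14.6, 29.5 and 40.6 CPM in WT non-Paneth and 16.1, 17.2 and 6.86 CPM in GRKO non-Paneth libraries. It was separate in Paneth and overlapped in non-Paneth cells, with a difference of 2.47 (SE 0.743, adjusted p = 0.048 by edgeR) that passed in 11 of 27 alternatives. The Eph receptor ligand gene Efnb2 differed by 2.12 (SE 0.529), the actin-severing gene Scin by 1.76 (SE 0.516), the hydrolase gene Abhd2 by 1.31 (SE 0.407) and the bicarbonate transporter gene Slc4a7 by 1.29 (SE 0.339). Rgcc, a regulator of the cell cycle, differed by -1.31 (SE 0.377). Scin and Abhd2 each passed in 14 and Rgcc in 20 of 27 alternatives. Efnb2 had 3.33, 9.9 and 9.47 CPM in WT and 16.7, 31.9 and 13.4 CPM in GRKO Paneth libraries, and its non-Paneth libraries were 41.3 to 58.1 CPM in WT and 30.2 to 36.3 CPM in GRKO. None of the 339 passed in all 18 fits with 1 or 2 libraries left out, and the class held 131 genes without GRKO Paneth replicate 2. The stem cell marker Olfm4 (-1.08, adjusted p = 0.0136) belonged here.

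In the remaining lists the share past the threshold ran from 0 to 28.6%, beside 18.7% of all genes tested. Of 14 glucocorticoid receptor targets tested 2 passed (14.3%), Cdkn1a and Errfi1, a feedback inhibitor of the EGF receptor (difference 1.33, SE 0.242). Sgk1, a kinase induced by glucocorticoids, was lower in GRKO cells of both fractions (log2 fold change -1.78, adjusted p = 0.0448, and -2.91, adjusted p = 7.36e-05) and its difference did not pass (1.14, SE 0.514, adjusted p = 0.148). Tsc22d3, also known as Gilz, fell in non-Paneth cells (-0.85, adjusted p = 0.00102), with -0.29 in Paneth cells (adjusted p = 0.303), and the difference did not pass (0.56, SE 0.238, adjusted p = 0.112). Fkbp5 and Per1 had differences of -0.28 (SE 0.271) and -0.41 (SE 0.311). Of 7 Paneth cell markers 0 passed by edgeR, with 1 at an unadjusted p under 0.05 and 0 by DESeq2, and Lyz1 differed by -0.05 with an SE of 0.581. Of 9 goblet cell markers 0 passed by edgeR, with 2 at an unadjusted p under 0.05 and 2 by DESeq2. Unfolded protein response genes gave 1 of 19, Edem1 (1.25, SE 0.272), and cholesterol and fatty acid synthesis 1 of 20. Nuclear genes of oxidative phosphorylation gave 1 of 80 (1.25%), the muscle-type subunit gene Cox7a1 (1.64, SE 0.396), although 23 fell in non-Paneth cells, where 19.8% of all genes fell. All 7 mitochondrial genes tested fell in non-Paneth cells, and 2 passed (28.6%), mt-Nd5 (1.08, SE 0.242) and mt-Nd2 (0.74, SE 0.243), which passed in 9 of 27 alternatives. Of the Wnt, Notch and EGF signals 3 of 16 passed (18.8%, as over all genes), the receptor Notch1 (-0.86) and its target Hes1 (-0.88), which rose in non-Paneth cells, and the receptor Erbb3 (0.79), which fell there. Erbb3 passed in 16 and Hes1 in 20 of 27 alternatives. The median differences of the receptor target, immediate early, cholesterol, and Wnt, Notch and EGF lists changed sign with library totals, to -0.06, -0.07, -0.02 and -0.09. Immune cell markers were tested for 4 of 14 members, endothelial and stromal markers for 1 of 12, with 0 past the threshold by edgeR or by DESeq2 and 0 at an unadjusted p under 0.05, and no erythroid marker passed the filter on low counts.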

How the data were processed

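RNA of sorted crypt cells was sequenced in 12 libraries (TruSeq stranded, single-end). The authors aligned reads to mm39 with STAR 2.7.10a and an annotation called gencode v28 in the methods, and the submitters' processing notes also name Trimmomatic 0.39, FastQC and DESeq2. The deposited values are raw counts of uniquely mapped reads per gene. Of 55414 genes, 54749 were named through GENCODE vM39 (GRCm39).

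For genotype effects and their interaction, edgeR 4.0.16 was run under R 4.3.3 (quasi-likelihood F-test, robust estimates, filterByExpr, TMM, 1 mean per group) as 1 fit over all 12 libraries, with Benjamini-Hochberg adjustment over 13057 genes. SE is the absolute log2 fold change divided by the square root of F, and 95% intervals use the t distribution. The procedure was tested on simulated counts. Length and GC content were removed as an alternative chosen after seeing the data. Other alternatives were DESeq2 1.42.0, other scalings and filters, a stricter threshold, a replicate block and left-out libraries. Counts of each pair of libraries of a group differed by 12.3 to 47.1 chi-square units per degree of freedom, so none is a repeat. Intervals and floors of counts cover counting error only.

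Members, gene lists and tests were chosen with earlier results of these data known. Named genes are the given markers, Nr3c1, up to 6 genes per class with the largest difference (at least 10 CPM in a group, genotypes not overlapping) and up to 4 called members per list. Sgk1, Tsc22d3, Fkbp5, Per1, Lyz1, Chga, Mki67, Lgr5, Olfm4, Faim2, Ghitm, Flna, Mical2, Micall1, Copg1 and Sec24c were added after their values were seen. Some called list members are not reported here.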

Additional observations from a re-analysis of the deposited data

Results flagged for a closer look

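The effect of genotype differed between Paneth and non-Paneth cells, by the test of the difference itself (the interaction in edgeR's quasi-likelihood fit), in 2445 genes, and the named genes of each class are among them. The log2 differences of the given markers were 2.19 for Grina, 2.52 for Mical1 and 2.33 for Cldn4. In the class with an effect in non-Paneth cells only they were -6.97 for Hmx3, -5.15 for Sst, -4.66 for Hmx2, 4.46 for Trim38, -4.21 for Plcb2 and -4.03 for Rgs13. The value of Hmx3 is a fitted one against a group with no counts and sets no bound.

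In the class with an effect in Paneth cells only the log2 differences were -1.57 for Eldr, -1.44 for Ube2t, -1.34 for Poli, 1.32 for Capn9, -1.31 for Siva1 and 1.22 for Tmem104. Genes with opposite effects gave 4.35 for Ltb4r2, 2.87 for Osgin1, 2.44 for Mfsd2a, 2.27 for Cdkn1a, 2.24 for Atp6v0a1 and 2.19 for Lrp12, and Sectm1b, lower in GRKO cells of both fractions, gave 0.99. Where neither effect passed by itself the values were 2.47 for Pfkfb3, 2.12 for Efnb2, 1.76 for Scin, 1.31 for Abhd2, -1.31 for Rgcc and 1.29 for Slc4a7.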

How the results depend on the processing

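Named genes kept the sign of their difference in all but 1 of 2862 values from the alternatives, and 341 values no longer passed the threshold. The exception was Nr3c1, not called as reported, at -0.15 without GRKO Paneth replicate 3, and up to 0.64 over the left-out libraries. The number of interaction genes and the non-Paneth only class stayed within 1.5 times of the reported values under other scalings, filters and tests, and moved at a false discovery rate of 1%, to 955 interaction genes, with 3002 for genotype in non-Paneth and 0 in Paneth cells, and classes of 836 (non-Paneth only), 0 (Paneth only), 0 (opposite), 0 (same sign) and 119 (neither).

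Counts that rest on Paneth cells moved most. Genotype in Paneth cells gave 2 genes with library totals, 1780 without a filter, 72 without robust estimates, 1421 with DESeq2 and 148 with the length and GC trend removed. The Paneth only class held 0, 336, 21, 347 and 43 genes in that order, and the class with opposite signs 0, 213, 9, 191 and 30. The class with the same sign held 0, 150, 39 and 3 genes with library totals, no filter, DESeq2 and the trend removed, and 5 with at least 10 counts in every library of a group. The cause was not tested.

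With libraries left out, interaction genes numbered 963 to 2610, genotype in Paneth cells 0 to 1619 and in non-Paneth cells 3566 to 5504, and the classes 891 to 2076 (non-Paneth only), 0 to 461 (Paneth only), 0 to 206 (opposite), 0 to 12 (same sign) and 72 to 483 (neither). Paneth genotype counts were 0 or 1 without WT Paneth replicate 1, GRKO Paneth replicate 2 or GRKO non-Paneth replicate 2.

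With a replicate block, 1 term per genotype and number, 2977 genes passed, 2358 of them among the 2445. Of the named genes Trim38, Slc4a7 and Mttp no longer passed with it (adjusted p = 0.0613, 0.0567 and 0.0615 by edgeR). Deviations of the 2 fractions of 1 number correlated at 0.0129 for GRKO replicate 1 and at 0.229 to 0.465 for the other 5 numbers, so the numbers are not taken to pair the libraries. Of the 12 libraries 10 correlated best with their own number in the other fraction, which is a hint from the data and not the design. Genotype effects, and so the sort, could not be fitted with this block.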
